A study of Mus musculus with 20 samples.

Results

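The deposited count table types 22 of its 2127 small RNA features as mitochondrial tRNA, and all 22 are described here; no measured value chose them. Short RNA was sequenced from 20 biopsies of mouse skin, 5 in each of 4 groups, all of the inbred strain FVB/N. Healthy skin had received acetone, the solvent. The hyperplastic skin (thickened, with no tumour), the papillomas (benign tumours) and the cutaneous squamous cell carcinomas (cSCC, malignant tumours) came from skin that had received DMBA, a mutagen that starts tumours, and PMA, a phorbol ester that promotes their growth. In each comparison with healthy skin the treatment and the lesion change together and cannot be told apart. The sources used here state neither age, sex, time of treatment nor the number of biopsies per mouse, and p-values therefore reflect only how far these biopsies differ, which may be technical. Total counts per library ranged from 4753061 to 7395047 for healthy and 5239742 to 10117810 for hyperplastic skin, and from 1270588 to 3797597 for papilloma and 2028162 to 3915431 for cSCC, so that every tumour library was shallower than every library of the other groups. The 6 keratinocyte miRNAs listed as skin markers had counts in all 20 libraries. The biopsies mix cell types, and in such bulk samples fewer cells of a type and less RNA per cell cannot be told apart.

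Mitochondrial tRNAs carry amino acids to the ribosomes inside mitochondria, which make a small set of proteins of the respiratory chain. Their genes lie on the circular mitochondrial genome between the rRNA and protein genes, and each strand of the circle is read as a long precursor from which the tRNAs are cut at both ends. Heavy-strand transcription gives both rRNAs, most mRNAs and most tRNAs, and light-strand transcription gives the other tRNAs. The counts here are of short reads assigned to a tRNA gene: they do not tell a whole tRNA from a fragment of it, nor which part of the tRNA was read.

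In each sequence shown here, taken from the GENCODE M21 transcripts of the GRCm38 reference by transcript identifier, the capitals mark the anticodon. All 22 transcripts have the same mitochondrial coordinates in that annotation as in the count table, whose build is mm9, and the reference strain is not FVB/N. The first 4 are the best counted members whose levels carried the sums, and mt-Tm, the methionine tRNA used in mitochondria both to start and to lengthen proteins, is the leading one. The next 4 are members with the larger falls in cSCC, and the last 3 are members that did not pass the test in any comparison.
mt-Tm (Met, chrM:3845-3913, plus strand): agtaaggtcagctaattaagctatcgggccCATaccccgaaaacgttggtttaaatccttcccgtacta
mt-Th (His, chrM:11546-11612, plus strand): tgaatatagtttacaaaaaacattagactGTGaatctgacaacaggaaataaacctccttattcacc
mt-Tv (Val, chrM:1025-1093, plus strand): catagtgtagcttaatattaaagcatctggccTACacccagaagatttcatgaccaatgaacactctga
mt-Tl1 (Leu for UUR codons, chrM:2676-2750, plus strand): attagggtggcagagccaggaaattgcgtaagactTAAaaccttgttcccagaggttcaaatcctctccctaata
mt-Tk (Lys, chrM:7700-7764, plus strand): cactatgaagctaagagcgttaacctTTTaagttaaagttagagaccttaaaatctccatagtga
mt-Tt (Thr, chrM:15289-15355, plus strand): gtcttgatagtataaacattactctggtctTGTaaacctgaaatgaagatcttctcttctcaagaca
mt-Tw (Trp, chrM:4950-5016, plus strand): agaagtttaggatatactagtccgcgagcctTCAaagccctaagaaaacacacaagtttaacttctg
mt-Tc (Cys, chrM:5192-5257, minus strand): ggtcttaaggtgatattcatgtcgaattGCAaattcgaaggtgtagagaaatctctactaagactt
mt-Ti (Ile, chrM:3706-3774, plus strand): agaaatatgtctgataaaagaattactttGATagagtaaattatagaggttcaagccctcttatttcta
mt-Tq (Gln, chrM:3772-3842, minus strand): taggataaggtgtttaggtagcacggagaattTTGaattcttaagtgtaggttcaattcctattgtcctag
mt-Te (Glu, chrM:14071-14139, minus strand): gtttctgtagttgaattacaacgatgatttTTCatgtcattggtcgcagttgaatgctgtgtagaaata
Plus-strand genes are those of heavy-strand transcription (14 members) and minus-strand genes those of light-strand transcription (8 members). The genes of mt-Ti and mt-Tq share 3 bases on opposite strands, and whether the counting used the strand is not given in the sources used here.

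Mitochondrial tRNAs took about 1% of all counts or less in most libraries. The share was 1.07, 1.09, 0.711, 0.851 and 1.04% in healthy libraries 2, 3, 4, 5 and 7. It was 0.590, 0.814, 0.442, 0.622 and 0.626% in hyperplastic libraries 1, 2, 5, 7 and 8, and 0.756, 0.978, 0.737, 0.421 and 0.426% in papilloma libraries 1, 3, 4, 5 and 6. It was 0.534, 1.15, 0.633, 0.683 and 0.440% in cSCC libraries 1, 2, 3, 4 and 6. The means were 0.952 ± 0.165% (SD, n = 5) for the healthy group, 0.619 ± 0.132% for the hyperplastic group, 0.664 ± 0.239% for papilloma and 0.687 ± 0.273% for cSCC. The groups overlapped in every pair, with cSCC 2 the highest library of all. No pair passed an exact two-sided permutation test of the log2 share after Benjamini-Hochberg adjustment over the 6 pairs, in which p cannot go below 0.00794. The nearest was hyperplastic against healthy skin, with a log2 difference of -0.63 (exact p = 0.0159, adjusted p = 0.0952). For papilloma and for cSCC against healthy skin the log2 differences were -0.58 and -0.53, each with an adjusted exact p of 0.19. Without cSCC 2, the adjusted exact p for cSCC against healthy skin was 0.0476 (log2 difference -0.74), so this call turns on 1 library. For hyperplastic against healthy skin the adjusted exact p was then 0.0476 as well. That comparison does not use cSCC 2. Its log2 difference (-0.63) and exact p (0.0159) stayed the same, and only the adjustment over the 6 pairs moved.

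**Figure D1:**
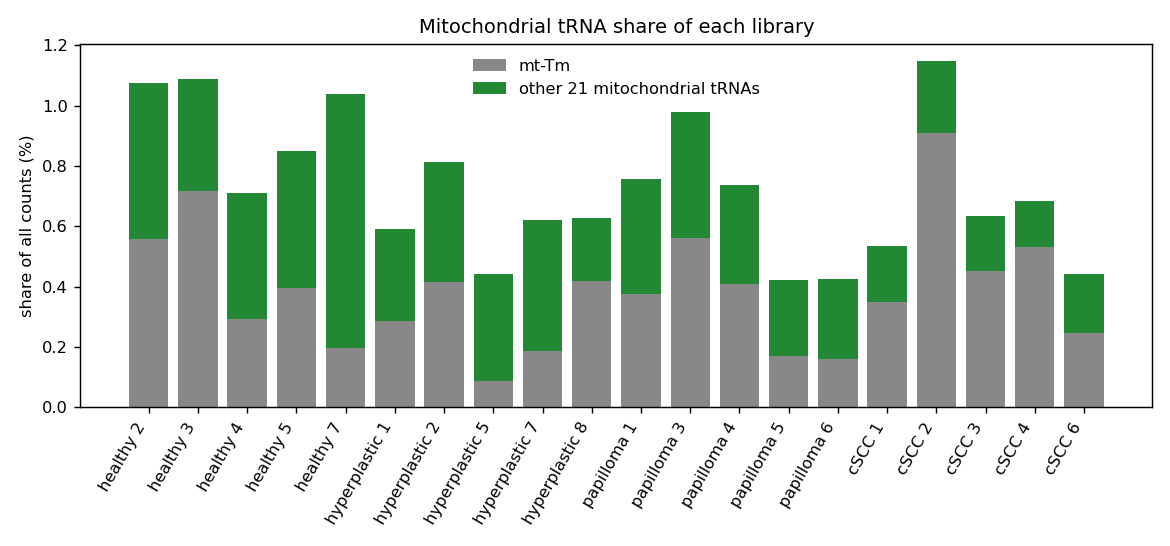
Share of all counts (percent) taken by mt-Tm (grey) and by the other 21 mitochondrial tRNAs (green) in each of the 20 libraries; 1 bar is 1 library. The green part lies between 0.153% and 0.236% in cSCC and between 0.369% and 0.841% in healthy skin, while the grey part varies within every group.

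A single member made up much of this sum. mt-Tm took 51.4% of the mitochondrial tRNA counts on average over the 20 libraries, followed by mt-Th, the histidine tRNA, with 12.1%, mt-Tv, the valine tRNA, with 10.5% and mt-Tl1 with 6.98%. Per kilobase of gene, which sets members of different length on the same scale, the mean levels ran from 55838 CPM (counts per 1000000 counts of all features) for mt-Tm through 12890.3 for mt-Th and 10610.3 for mt-Tv to 68.9 for mt-Td, 34.2 for mt-Ty and 13.8 for mt-Ts1. mt-Tm ranked first in every group, and mt-Th, mt-Tv and mt-Tl1 held ranks 2 to 4 in every group. mt-Ts1, the serine tRNA for UCN codons, had a mean of only 4.50 counts per library and was at 0 in 3 libraries; it was the only member that failed the filter on low counts, so 21 members were tested.

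**Figure D2:**
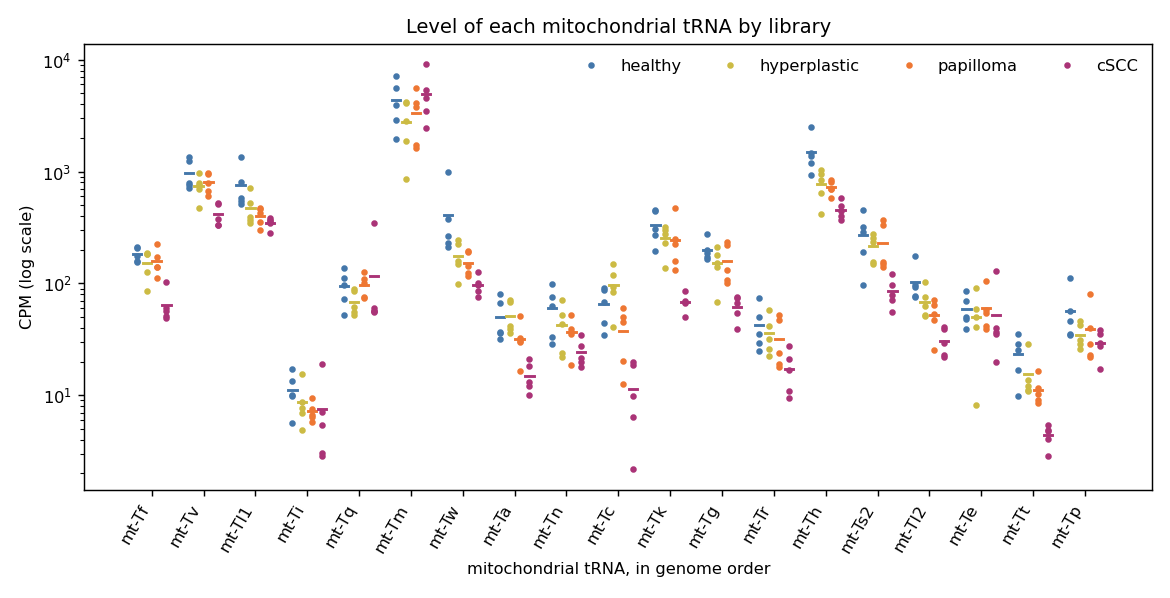
Level of 19 mitochondrial tRNAs in CPM on a log axis, in genome order; points are libraries, short lines are group means (n = 5). mt-Ts1, mt-Ty and mt-Td, the 3 members of lowest level, are left out. All cSCC points lie below all healthy points for 11 of the 19 members; the points of both groups overlap for mt-Ti, mt-Tq, mt-Tm, mt-Tn, mt-Tr, mt-Ts2, mt-Te and mt-Tp.

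mt-Tm itself varied widely within each group. Its levels were 5591, 7173, 2911, 3955 and 1966 CPM in the healthy libraries, 2843, 4134, 859, 1869.6 and 4182 in the hyperplastic ones, 3759, 5604, 4067, 1710.2 and 1608 in the papillomas and 3471, 9102, 4504, 5303 and 2446 in the cSCC libraries, in the library order given for the shares. The lowest library was hyperplastic 5 and the highest cSCC 2, and all groups overlapped. In none of the 6 comparisons did mt-Tm pass the test, edgeR's quasi-likelihood F test with Benjamini-Hochberg adjustment over the 1522 features tested. The log2 fold change was -0.64 for hyperplastic skin, -0.37 for papilloma and 0.20 for cSCC against healthy skin (adjusted p = 0.543, 0.492 and 0.709). For cSCC the sign turned without cSCC 2 (-0.14) and with TMM factors from all features (-0.02) or DESeq2 size factors (-0.14), but not with TMM factors from abundant features. The other comparisons gave 0.57 for cSCC against papilloma, 0.84 for cSCC against hyperplastic skin and 0.27 for papilloma against hyperplastic skin (adjusted p = 0.468, 0.114 and 0.645).

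As a share of the mitochondrial tRNA counts, mt-Tm was higher in cSCC than in the other 3 groups. The share was 52.0, 66.0, 40.9, 46.5 and 18.9% in the healthy libraries and 48.2, 50.8, 19.4, 30.1 and 66.8% in the hyperplastic ones. It was 49.7, 57.3, 55.1, 40.6 and 37.8% in the papillomas and 65.0, 79.4, 71.2, 77.6 and 55.6% in the cSCC libraries. Every cSCC library but cSCC 6 lay above every papilloma library, while healthy 3 and hyperplastic 8 lay within the cSCC range. The means were 44.9 ± 17.2% (SD, n = 5), 43.1 ± 18.6%, 48.1 ± 8.65% and 69.8 ± 9.75% in that order of groups. The difference of cSCC was 24.9 percentage points against healthy skin, 21.7 against papilloma and 26.7 against hyperplastic skin, each with an adjusted exact permutation p of 0.0476. Leaving out 1 library at a time, 17 of 20 fits took the adjusted exact p of each of these past 0.05 (up to 0.0952). These include fits that left out a library of neither group compared. There the exact p is unchanged and only the adjustment over the 6 pairs moves. Where a library of the pair is left out, 5 libraries against 4, the smallest exact p is 0.0159.

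The other 21 members together were lower in cSCC than in each other group. Their share of all counts was 0.516, 0.369, 0.420, 0.455 and 0.841% in the healthy libraries and 0.306, 0.401, 0.356, 0.435 and 0.208% in the hyperplastic ones. It was 0.380, 0.418, 0.331, 0.250 and 0.265% in the papillomas and 0.187, 0.236, 0.182, 0.153 and 0.195% in the cSCC libraries. All 5 cSCC libraries lay below all healthy and all papilloma libraries and overlapped with the hyperplastic ones through hyperplastic 8 alone; healthy 7 stood far above the rest. The sum without mt-Tm was tested with the level of mt-Tm known. Against healthy skin the log2 difference of cSCC was -1.40 (adjusted exact permutation p = 0.0238), that of papilloma -0.63 (adjusted exact p = 0.0476) and that of hyperplastic skin -0.59 (adjusted exact p = 0.0571). Against papilloma cSCC was lower by 0.77 on the log2 scale (adjusted exact p = 0.0238) and against hyperplastic skin by 0.81 (adjusted exact p = 0.0317). Papilloma and hyperplastic skin differed by -0.04 (adjusted exact p = 0.889), with means of 0.329 ± 0.0723% and 0.341 ± 0.0889% (SD, n = 5). The papilloma difference from healthy skin did not hold without healthy 7 (log2 difference -0.44, adjusted exact p = 0.0952) or in 6 other leave-one-out fits, nor with any of 3 other denominators: mature miRNA counts, the total without tRNA features (adjusted exact p = 0.0714 for both) and the total without the 5 most abundant features (0.0952). With the last of these the difference between cSCC and hyperplastic skin was not called either (log2 difference -0.57, adjusted exact p = 0.0952). The cSCC differences from healthy skin and papilloma kept their calls in all 20 leave-one-out fits and with these 3 denominators.

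**Figure D3:**
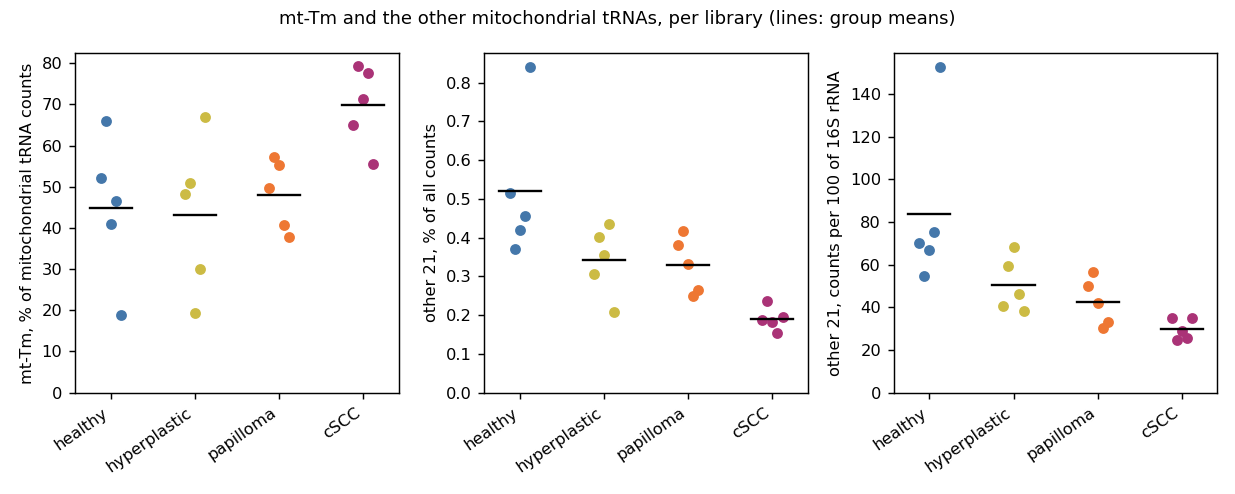
Per library, from left to right: mt-Tm as percent of the mitochondrial tRNA counts, the other 21 members as percent of all counts, and the counts of the other 21 members per 100 counts of the mitochondrial 16S rRNA; points are libraries, lines are group means (n = 5). In the middle panel the cSCC points lie between 0.153% and 0.236%, below all healthy and papilloma points, and the healthy point at 0.841% is healthy 7.

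Member by member, 16 of the 21 tested mitochondrial tRNAs fell in cSCC against healthy skin and none rose, where 14.8% of all 1522 features tested were called lower and 29.3% higher. Their median log2 fold change was -1.51, against 0.48 over all features tested. The groups did not overlap for 12 of the 21 members, all lower in cSCC, against 9.40% of all features. mt-Th, mt-Tv, mt-Tl1 and mt-Tw accounted for 70.6% of the difference in mean summed level of the 21 members other than mt-Tm, from 5203 CPM in healthy skin to 1907 CPM in cSCC. These means include healthy 7, the highest healthy library for all 4, with mt-Tw at 986 CPM against 375 CPM in the next healthy library. Over the 4 groups together, 15 of 21 members passed the F test, where 57.2% of all features did.

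**Figure D4:**
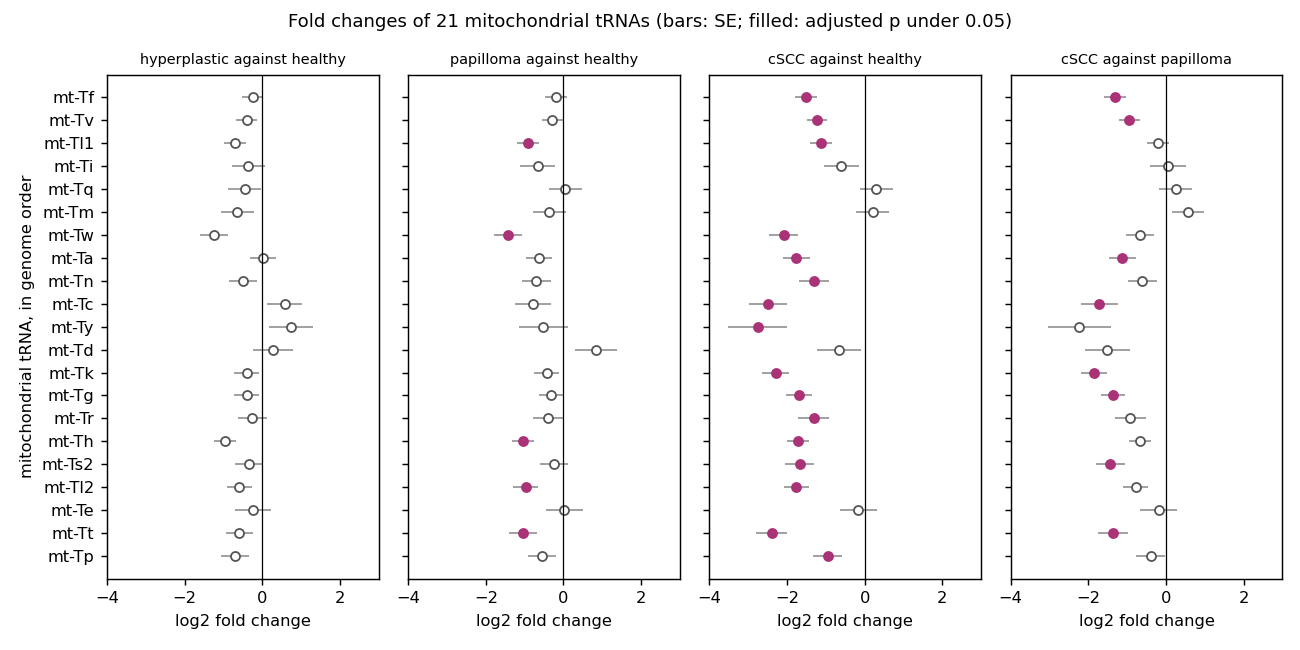
Log2 fold changes of the 21 tested mitochondrial tRNAs, in genome order, for 4 comparisons; bars are standard errors, filled points have an adjusted p under 0.05 and open points do not. In cSCC against healthy skin 16 points are filled, and mt-Ti, mt-Tq, mt-Tm, mt-Td and mt-Te are open; no point is filled for hyperplastic against healthy skin.

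The falls in cSCC ran through most of the genome. In the rRNA block, whose tRNAs flank both mitochondrial rRNA genes, all 3 members fell, with log2 fold changes of -1.51 for mt-Tf, the phenylalanine tRNA at the start of the heavy-strand transcript, -1.23 for mt-Tv and -1.12 for mt-Tl1. mt-Tv was at 1246, 709, 764, 797 and 1361 CPM in healthy skin and 331, 514, 377, 331 and 526 CPM in cSCC. mt-Tl1 was at 584, 517, 550.0, 802 and 1345 CPM in healthy skin and 369.9, 363, 348, 281 and 387 CPM in cSCC. Neither member overlapped between the groups, and healthy 7 was the highest library for both.

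All 5 members of the block of mt-Tw, mt-Ta, mt-Tn, mt-Tc and mt-Ty, which surrounds the origin of light-strand replication, fell in cSCC. mt-Tw, the tryptophan tRNA and the only one of the block from the heavy-strand transcript, was at 229, 209.6, 264, 375 and 986 CPM in healthy skin and 76.3, 100.3, 125, 86.3 and 97.1 CPM in cSCC (log2 fold change -2.09, SE 0.37, adjusted p = 0.000114). mt-Tc, the cysteine tRNA, was at 68.4, 44.5, 34.3, 86.4 and 90.4 CPM in healthy skin and 20.0, 2.17, 6.38, 18.8 and 9.86 CPM in cSCC (log2 fold change -2.49, SE 0.49, adjusted p = 0.000287). mt-Ta, the alanine tRNA, fell by 1.77 on the log2 scale (SE 0.35, adjusted p = 0.000308). In each of these 3 members every cSCC library lay below every healthy library. The largest fold change was that of mt-Ty, the tyrosine tRNA (-2.76, SE 0.76, adjusted p = 0.00563), but it rests on a mean of 14.4 counts per library, with 2 cSCC libraries and 1 papilloma at 0.

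The 3 tRNAs that stand alone between protein genes and the His-Ser AGY-Leu CUN block fell as well. mt-Tk, the lysine tRNA, was at 444, 304, 272, 197 and 448 CPM in the healthy libraries, 229.6, 275, 322, 302 and 137 in the hyperplastic ones, 224, 467, 247, 159 and 132 in the papillomas and 67.6, 66.7, 69.2, 49.5 and 85.8 in the cSCC libraries. The cSCC libraries lay below every library of the 3 other groups, and the log2 fold change was -2.30 against healthy skin, -1.86 against papilloma and -1.90 against hyperplastic skin (adjusted p = 1.22e-05, 0.00247 and 0.000122). mt-Tg, the glycine tRNA, had a log2 fold change of -1.69 and mt-Tr, the arginine tRNA, one of -1.32 against healthy skin. mt-Th was at 1204, 923, 1379, 1478 and 2509.7 CPM in the healthy libraries, 644, 947, 835, 1028 and 414 in the hyperplastic ones, 806, 842, 701, 584 and 699.7 in the papillomas and 579, 367, 494, 441 and 397 in the cSCC libraries. All healthy libraries were above all papilloma libraries, and all papilloma libraries above all cSCC libraries. Its log2 fold change in cSCC was -1.72 (SE 0.28, adjusted p = 4.71e-05). mt-Ts2, the serine tRNA for AGY codons, which lacks the D arm of other tRNAs, had a log2 fold change of -1.67, and mt-Tl2, the leucine tRNA for CUN codons, one of -1.76.

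In the Thr-Pro pair, whose genes lie on opposite strands beside the control region, mt-Tt was at 25.2, 16.8, 9.89, 28.7 and 35.5 CPM in healthy skin and 4.77, 5.43, 4.09, 2.85 and 4.93 CPM in cSCC, with no overlap (log2 fold change -2.40, SE 0.39, adjusted p = 3.59e-05). mt-Tp, the proline tRNA, fell by 0.95 with overlapping groups.

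The 5 tested members that did not pass in cSCC against healthy skin were the whole Ile-Gln-Met block, mt-Te and mt-Td. mt-Tq, the glutamine tRNA, was at 136, 97.5, 72.2, 51.7 and 112 CPM in healthy skin and 56.6, 348, 57.2, 55.0 and 60.6 CPM in cSCC, where 4 libraries lay within the healthy range and cSCC 2 far above it. mt-Te, the glutamate tRNA, was at 85.4, 39.2, 48.4, 50.6 and 69.3 CPM in healthy skin and 39.6, 129, 37.0, 19.9 and 35.5 CPM in cSCC, again with cSCC 2 highest. The log2 fold changes were 0.30 (SE 0.43) for mt-Tq, -0.17 (SE 0.47) for mt-Te, -0.60 (SE 0.45) for mt-Ti and -0.67 (SE 0.57) for mt-Td. mt-Ti, the isoleucine tRNA, and mt-Td, the aspartate tRNA, had means of 43.9 and 22.4 counts per library. Without cSCC 2, mt-Ti was called lower (-1.29, adjusted p = 0.0209), the sign of mt-Tq turned (-0.71, adjusted p = 0.0630) and mt-Te and mt-Td were at -0.83 and -1.11 (adjusted p = 0.142 and 0.148), in the same edgeR test. These 5 were named after their values were seen, and the difference between them and the 16 others was not tested.

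In papilloma against healthy skin 5 of 21 members fell, where 5.85% of all features were called lower and 36.4% higher. The 5 were mt-Tw (log2 fold change -1.43), mt-Th (-1.04), mt-Tt (-1.04), mt-Tl2 (-0.97) and mt-Tl1 (-0.92), with adjusted p-values from 0.00393 to 0.0264. mt-Tw was at 189.9, 194, 143, 123 and 117 CPM in papilloma, below all healthy libraries. mt-Tl1 was at 466, 423, 472, 300.4 and 353 CPM, also below all healthy libraries. The groups did not overlap for 4 of the 5, mt-Tt being the exception, against 4.01% of all features. mt-Tv, the most abundant of the members that did not pass after mt-Tm, was at 979, 950.3, 789, 602 and 675 CPM in papilloma (log2 fold change -0.29, adjusted p = 0.379). The median log2 fold change was -0.53 over the 21 members and 0.68 over all features. Healthy 7 was the highest healthy library for all 5 called members, and without healthy 7 only 2 members were called. With all libraries, 10 were called with TMM factors from all features, 5 with TMM factors from abundant features and 14 with DESeq2 size factors.

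No member passed the test in hyperplastic against healthy skin, where 0.0657% of all features were called lower and 0.657% higher. With edgeR 3 of 21 members had an unadjusted p under 0.05 (mt-Tw, mt-Th and mt-Tl1), and DESeq2 called 2 members lower. The groups overlapped for all 21 members, where 1.77% of all features lay lower without overlap. mt-Tw was at 149, 158, 244, 224 and 99.7 CPM in hyperplastic skin, so that 2 of its 5 libraries lay within the healthy range. The log2 fold changes of the 3 most abundant members were -0.64 for mt-Tm, -0.95 for mt-Th and -0.40 for mt-Tv. The median over the 21 members was -0.40, and 0.07 over all features.

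Between the tumours, 8 of 21 members were lower in cSCC than in papilloma, where 6.31% of all features were called lower and 2.04% higher. They were mt-Tk (-1.86 on the log2 scale), mt-Tc (-1.71), mt-Ts2 (-1.43), mt-Tg (-1.37), mt-Tt (-1.36), mt-Tf (-1.31), mt-Ta (-1.13) and mt-Tv (-0.94), with adjusted p-values from 0.00247 to 0.0393. mt-Tg was at 222, 234, 131, 106 and 101 CPM in papilloma and 73.3, 66.7, 75.3, 38.7 and 54.2 CPM in cSCC. mt-Tf was at 139.8, 225, 172, 141 and 113 CPM in papilloma and 50.6, 103, 59.8, 49.0 and 56.7 CPM in cSCC. In both members every cSCC library lay below every papilloma library, as in 7 of the 21 members (against 4.80% of all features). mt-Th had no overlap either but did not pass (-0.67, adjusted p = 0.136). The number of members called fell from 8 to 2 without papilloma 3, to 3 without papilloma 1, to 5 without cSCC 1 and to 4 without cSCC 3 or without cSCC 4. With TMM factors from all or from abundant features, or DESeq2 size factors, 4, 3 and 4 members were called.

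Against hyperplastic skin 12 of 21 members were lower in cSCC, where 16.4% of all features were called lower and 25.5% higher. The largest falls were those of mt-Ty (-3.50), mt-Tc (-3.07), mt-Tk (-1.90), mt-Tt (-1.81), mt-Ta (-1.79) and mt-Ts2 (-1.34), all without overlap between the groups. With mt-Tl2 that made 7 of 21 members without overlap, against 9.46% of all features. mt-Th (-0.76, adjusted p = 0.0304) and mt-Tv (-0.83, adjusted p = 0.0152) were also lower; the call of mt-Th was lost with TMM factors from abundant features (-0.51, adjusted p = 0.107) and without hyperplastic 2, 5 or 7 or cSCC 2, 4 or 6. Over the library scalings and DESeq2, 10 to 16 members were called lower. mt-Tc was at 93.5, 119, 83.1, 149 and 40.6 CPM in hyperplastic skin and 49.8, 59.7, 45.2, 20.1 and 12.6 CPM in papilloma. It was the 1 member of 21 called lower in papilloma against hyperplastic skin (-1.36, adjusted p = 0.0272), where 4.34% of all features were called lower and 26.6% higher. That call did not hold without hyperplastic 7, papilloma 5 or papilloma 6. mt-Th (-0.09) and mt-Tv (0.11, a sign that turns under other scalings) did not pass there, and the groups overlapped for all 21 members, where 3.35% of all features lay lower without overlap. The comparisons that share a group use the same libraries, so their values are not independent of each other.

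Heavy-strand transcripts made up 95.5% of the mitochondrial tRNA counts and light-strand transcripts 4.52%. Per kilobase the median level was 2613 CPM over the 14 heavy-strand members and 585 CPM over the 8 light-strand ones, and no light-strand member exceeded mt-Tq, at 1322 CPM. The light-strand share was 4.93, 2.61, 4.21, 3.63 and 4.98% in the healthy libraries and 5.29, 5.36, 6.39, 8.35 and 3.14% in the hyperplastic ones. It was 3.42, 3.82, 5.38, 5.86 and 5.81% in the papillomas and 3.17, 4.99, 2.54, 2.23 and 4.31% in the cSCC libraries, and the groups overlapped in every pair. No pair passed the exact permutation test after adjustment; the furthest apart were cSCC and hyperplastic skin, by -2.26 percentage points (adjusted exact p = 0.27). Without mt-Tm in the sum the mean share was 7.60 ± 1.597% (SD, n = 5) in healthy skin and 12.4 ± 6.65% in cSCC, where cSCC 2 was at 24.2% and the 4 others at 8.82% to 9.95%. In cSCC against healthy skin 11 of 14 heavy-strand members and 5 of 7 tested light-strand members were lower, with medians of -1.59 and -1.31 on the log2 scale.

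Set against the nuclear tRNAs, whose genes lie on the chromosomes and which serve the cytoplasm, the mitochondrial tRNAs gave another order of the groups. Per 100 counts of the 388 nuclear tRNA entries there were 4.63, 4.05, 1.96, 2.79 and 3.52 mitochondrial tRNA counts in the healthy libraries and 1.58, 1.99, 1.36, 2.14 and 1.36 in the hyperplastic ones. There were 2.20, 2.91, 2.61, 2.15 and 3.14 in the papillomas and 2.66, 5.35, 2.71, 3.54 and 2.48 in the cSCC libraries. The hyperplastic libraries lay below all papilloma and all cSCC libraries. The log2 ratio was lower in hyperplastic than in healthy skin by 0.97 (adjusted exact permutation p = 0.0476), and higher than in hyperplastic skin by 0.63 in papilloma and 0.95 in cSCC (adjusted exact p = 0.0238 for both). The difference between hyperplastic and healthy skin lost its call in 9 of 20 fits with 1 library left out, those without healthy 2, 3, 5 or 7 or any hyperplastic library (adjusted exact p = 0.0635 to 0.0952). The nuclear tRNAs took 37.1 ± 6.68% (SD, n = 5) of all counts in hyperplastic skin against 29.3 ± 4.83% in healthy skin and 20.4 ± 2.13% in cSCC. Without mt-Tm the ratio was lower in cSCC than in healthy skin by 0.89 and than in papilloma by 0.51 on the log2 scale (adjusted exact p = 0.0238 for both), and the 3 calls with mt-Tm were lost: hyperplastic against healthy skin (-0.93, adjusted exact p = 0.0794), papilloma against hyperplastic skin (0.55, adjusted exact p = 0.179) and cSCC against hyperplastic skin (0.04, adjusted exact p = 0.889).

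The mitochondrial 16S rRNA was set beside the tRNAs after their levels were seen, as was the 12S rRNA. The 16S rRNA comes from the same heavy-strand precursor as mt-Tv and mt-Tl1 on either side of it. The shares of both rRNAs are given without a permutation test. Reads of 16S rRNA took 0.737, 0.676, 0.630, 0.606 and 0.551% of all counts in the healthy libraries, 0.753, 0.676, 0.521, 0.937 and 0.543% in the hyperplastic ones, 0.762, 0.737, 0.789, 0.825 and 0.797% in the papillomas and 0.536, 0.951, 0.627, 0.599 and 0.562% in the cSCC libraries. Per 100 counts of 16S rRNA the other 21 members had 70.0, 54.6, 66.7, 75.2 and 153 counts in the healthy libraries and 34.8, 24.9, 29.1, 25.5 and 34.8 in the cSCC libraries. So the 16S share in cSCC overlapped with that in healthy skin, while the tRNA counts per 16S count did not. Per 100 counts of 16S rRNA there were 38.2 to 68.4 in hyperplastic skin. In papilloma there were 30.3 to 56.7, which overlapped with both healthy skin and cSCC. The share of the 12S rRNA, the smaller rRNA between mt-Tf and mt-Tv, was 0.0208, 0.0140, 0.0224, 0.0205 and 0.0273% in the healthy libraries and 0.0310, 0.0780, 0.0524, 0.0329 and 0.0438% in the cSCC libraries, higher in cSCC without overlap. The 12S share was 0.0145 to 0.0211% in hyperplastic skin and 0.0265 to 0.0552% in papilloma, which overlapped with both healthy skin and cSCC. The edgeR fit tested 3 mitochondrial rRNA entries, the 16S and 12S rRNA among them. It called 2 of the 3 higher in cSCC and 2 higher in papilloma against healthy skin. Of all features 29.3% and 36.4% were called higher there. The reads of rRNA in such libraries are of fragments short enough to pass the gel.

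Some members may share reads with other entries of the table. An entry at chrM:5090-5159 has the place of mt-Tn, the asparagine tRNA, and 4361 counts in all against 4310 for mt-Tn. An entry of 70 bases at chr2:22443484-22443553 tracked mt-Td, with 474 counts in all against 447, and was within 5 counts of it in 13 of 20 libraries. A second entry there, of 67 bases at chr2:22445169-22445235, lies from the first at the spacing of mt-Ty from mt-Td in mirrored order (1685 bases between the starts, as between the ends of the mitochondrial genes). It has the length of mt-Ty and 4244 counts in all against 288 for mt-Ty, and its counts over the 20 libraries had a Pearson correlation of 0.70 with those of mt-Ty and 0.88 with those of mt-Tn. Its mean level was 57.0 ± 22.5 CPM (SD, n = 5) in healthy skin and 27.0 ± 24.7 CPM in cSCC (log2 fold change -1.08, adjusted p = 0.0584 in the same edgeR fit). How reads that match several places were counted is not given in the sources used here, so mt-Tn, mt-Td and mt-Ty are uncertain one by one. The log2 fold changes of cSCC against healthy skin were -1.31 for mt-Tn and -1.51 for the entry at its place.

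Marker sums of some cell types differed between the groups as well, and these sums were not tested. Between healthy skin and cSCC the striated muscle, leukocyte, and smooth muscle and fibroblast sums did not overlap. The keratinocyte, endothelial and erythroid sums did. The 6 listed striated muscle miRNAs, all found, summed to 10743 to 45317 CPM over the healthy libraries, 10572 to 26102 over the hyperplastic ones, 1805 to 6549 over the papillomas and 1425 to 2427 over the cSCC libraries; miR-499-5p was at 0 in a healthy library and miR-208b-3p in a cSCC library. The 5 leukocyte miRNAs, all found, summed to 10890 to 15400.2 CPM in healthy skin and 33889 to 110468 in cSCC. In papilloma the leukocyte sums were 9323 to 84137 CPM and the keratinocyte sums 121725 to 169043 CPM. The 4 smooth muscle and fibroblast miRNAs summed to 34852 to 64879 CPM in healthy skin and 13922 to 29012 in cSCC, and the 6 keratinocyte miRNAs to 91688 to 123067 and 47623 to 97183. The 2 endothelial miRNAs summed to 14144 to 20965 CPM in healthy skin and 7940.1 to 15549 in cSCC, and the erythroid list, without miR-451a, which was not found, to 28.0 to 108 and 32.5 to 169. Muscle is rich in mitochondria, and the part of these cell types, and of the lower depth of the tumour libraries, in the falls of the tRNAs was not tested. The mean striated muscle sum was 25149, 17233, 4073 and 1985 CPM in healthy skin, hyperplastic skin, papilloma and cSCC. The mean share of the other 21 members was 0.520, 0.341, 0.329 and 0.191% in the same groups. Between papilloma and hyperplastic skin that share hardly differed (log2 difference -0.04, adjusted exact permutation p = 0.889), while their striated muscle sums did not overlap. Healthy 7, the library highest for the other 21 members, had the lowest striated muscle sum of the healthy libraries, and hyperplastic and healthy skin overlapped in that sum.

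Across the 20 libraries most members other than mt-Tm moved together, as a description over libraries that share depth and group. The Pearson correlation of a member's log2 level with that of the sum of the other members, mt-Tm left out, was 0.92 for mt-Tl2, 0.91 for mt-Tv, 0.91 for mt-Tg and 0.90 for mt-Tw, but 0.45 for mt-Te, 0.23 for mt-Tq and -0.15 for mt-Tm. It was 0.20 for mt-Ts1, 0.53 for mt-Td and 0.57 for mt-Ty, the members of lowest level. Outside the members, the 5 tested features whose log2 level was most like the summed share of all 22 were a piRNA entry (r = 0.66) and 4 snoRNA entries (r = 0.61 to 0.65). For the sum without mt-Tm they were miR-30c-5p (r = 0.88), miR-676-3p (0.84), miR-193b-3p (0.83), miR-30d-5p (0.83) and miR-30b-5p (0.82). GC content of the gene, from 17.1% in mt-Td to 44.9% in mt-Tm, had a Spearman correlation of 0.31 with the log2 level per kilobase over the 22 members and of 0.11 with the log2 fold change of cSCC against healthy skin over the 21 tested.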

How the data were processed

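Small RNA from 20 FVB/N skin biopsies, 5 per group, was sequenced on SOLiD after gel size selection, per the labels' protocols. The authors deposited raw counts per feature for 2127 features, with genome build mm9 per the submitters' processing notes. The way reads were aligned and counted, with strand and with several matches, is not given in the sources used here. Every row names a feature. Names, strand and sequence of the 22 members came from the GENCODE M21 annotation and transcripts by transcript identifier; all 22 matched.

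Groups and replicate numbers follow the sample labels. Total counts ran from 1270588 to 10117810 per library and mitochondrial tRNA counts from 5408 to 71217, so low members carry more counting error; the 40 within-group pairs of libraries differed by 124 to 887 times sampling noise (chi-square per degree of freedom), so none was counted as a duplicate. CPM are counts per 1000000 counts of all features. Fold changes came from edgeR 4.0.16 (R 4.3.3), its quasi-likelihood F test on all features passing filterByExpr by group (minimum count 10, minimum total 15, leaving 1522), with total counts as library size, 1 term per group, Benjamini-Hochberg adjustment and a threshold of 0.05. Standard errors were derived from the F statistic. Shares and ratios, 1 value per library, were compared by exact two-sided permutation tests (252 splits, scipy 1.17.1), adjusted over the 6 pairs. On simulated counts for cSCC against healthy skin (1484 features tested) the fit recovered 29.6% of features changed by 1 and 83.3% of those changed by 2 on the log2 scale. For hyperplastic against healthy skin (1479 features tested) it recovered 21.2% and 81.6%. Alternatives were other library scalings, filters, DESeq2 1.42.0, a replicate block, other denominators and leaving out libraries.

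Fold changes with statistics are printed for up to 6 called members per comparison with the largest change and always for mt-Tm, mt-Th and mt-Tv; other members are given by their block or counted list, with fewer statistics, or as chosen after their values were seen. The members and lists were chosen with earlier results of these data known.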

Additional observations from a re-analysis of the deposited data

Results flagged for a closer look

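In 10 of 108 groups of 5 libraries examined, a library at either end stood apart from the nearest of the others by more than 0.71 of the group's range. For normally distributed values, chance gives this in about 1 group in 20, and whether the values are so distributed was not checked. In each of the 10 groups it was the highest library. Of these 10, 5 were cSCC 2. It had 348 CPM of mt-Tq against 60.6 in the next cSCC library, 129 CPM of mt-Te against 39.6, 18.8 CPM of mt-Ti against 7.15 and 103 CPM of mt-Tf against 59.8, and its 16S rRNA share was 0.951% against 0.627%. Healthy 7 stood apart in 3 members, with 986 CPM of mt-Tw against 375 in the next healthy library, 174 CPM of mt-Tl2 against 97.0 and 112 CPM of mt-Tp against 56.3. In papilloma 4 mt-Te was at 105 CPM against 58.2 in the next papilloma, and in hyperplastic 7 mt-Tt was at 28.9 CPM against 13.8 in the next hyperplastic library.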

How the results depend on the processing

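The fall of most members in cSCC against healthy skin kept its direction over the library scalings: 14 to 17 of 21 members were called in every alternative except the filter to features of at least 50 CPM, which tests fewer members and called 10. Other counts of members called lower moved. Papilloma against healthy skin had 10 with TMM factors from all features, 14 with DESeq2 size factors or DESeq2 and 2 without healthy 7 and cSCC 2; cSCC against papilloma had 4 with TMM factors from all features, DESeq2 size factors or only the 2 groups compared, and 3 with TMM factors from abundant features; papilloma against hyperplastic skin had 4 with TMM factors from all features or DESeq2 size factors and 5 with DESeq2; hyperplastic against healthy skin had 2 with DESeq2; and 1 member, mt-Tm, was called higher in cSCC against hyperplastic skin with TMM factors from abundant features. The median over all features moved by up to -0.55 on the log2 scale under these scalings (papilloma against healthy skin, DESeq2 size factors), while the median of the 21 members relative to it stayed at -2.02 to -1.98 in cSCC against healthy skin. Over all features, the higher and lower calls of papilloma against healthy skin went from 554 and 89 to 283 and 268 with DESeq2 size factors, those of cSCC against healthy skin from 446 and 225 to 337 and 317, and those of cSCC against papilloma from 31 and 96 to 57 and 27. Papilloma against hyperplastic skin went from 405 and 66 to 243 and 201, and cSCC against hyperplastic skin from 388 and 250 to 329 and 319. Leaving out 1 library at a time, the counts were 0 for hyperplastic, 2 to 6 for papilloma and 15 to 17 for cSCC against healthy skin, 2 to 9 for cSCC against papilloma, 0 to 1 for papilloma and 10 to 13 for cSCC against hyperplastic skin, and 12 to 16 over the 4 groups. The correlation of deviations was -0.17 to 0.23 in 17 pairs of libraries with the same replicate number (3 over 0.1). It was -0.42 to 0.27 in 133 pairs with different numbers (29 over 0.1). What the numbers stand for is not given in the sources used here, and these correlations do not settle it. A replicate block gave 0, 1 and 14 members for hyperplastic, papilloma and cSCC against healthy skin, and 8 for cSCC against papilloma. It gave 0 for papilloma and 8 for cSCC against hyperplastic skin, and 13 over the 4 groups.

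Log2 differences in the summed share changed sign with the mature miRNA counts as denominator in cSCC against papilloma (-0.0684), papilloma against hyperplastic (-0.18) and cSCC against hyperplastic skin (-0.25), without tRNA features in the total in the same comparisons (-0.0618, -0.19 and -0.25), without the leading member (-0.77, -0.0359 and -0.81) and, without healthy 7 and cSCC 2, in cSCC against papilloma (-0.15) and hyperplastic skin (-0.11). Without the leading member the share differed by -0.63 in papilloma and -1.40 in cSCC against healthy skin. The ratio to nuclear tRNA without the leading member was -0.93 and -0.89 for hyperplastic skin and cSCC against healthy skin, -0.51 for cSCC against papilloma and 0.55 and 0.0447 for papilloma and cSCC against hyperplastic skin; without healthy 7 and cSCC 2 it was -0.94 for hyperplastic against healthy skin. The mean light-strand share without the leading member was higher in cSCC by 4.75, 2.96 and 2.27 percentage points than in healthy skin, papilloma and hyperplastic skin. None of these differences passed (adjusted exact p = 0.143, 0.629 and 0.810), and the groups overlapped in each pair. In cSCC 2 that share was 24.2%, and in the other cSCC libraries it was 8.82% to 9.95%. The share of mt-Tm without healthy 7 and cSCC 2 differed by -3.26 points in papilloma and 15.998 in cSCC against healthy skin, 19.3 for cSCC against papilloma and 24.3 against hyperplastic skin. None of these differences was called (adjusted exact p = 0.619, 0.171, 0.143 and 0.143). The share of the other 21 members in papilloma against healthy skin was -0.70 with miRNA counts or without tRNA features as denominator, -0.43 without the 5 most abundant features and -0.44 without healthy 7 and cSCC 2; without those features it was 0.18 and -0.57 for papilloma and cSCC against hyperplastic skin, and without those libraries -1.29 for cSCC against healthy skin (adjusted exact p = 0.0571, where 4 against 4 cannot go below an exact p of 0.0286). The cause of these shifts was not tested.

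Leaving out 1 library at a time, in the order hyperplastic, papilloma and cSCC against healthy skin, cSCC against papilloma, then papilloma and cSCC against hyperplastic skin, the log2 difference of the summed share was -0.74 to -0.52, -0.74 to -0.44, -0.74 to -0.39, -0.15 to 0.21, -0.11 to 0.19 and -0.11 to 0.24. That of the ratio was -1.15 to -0.84, -0.52 to -0.21, -0.20 to 0.11, 0.13 to 0.41, 0.56 to 0.73 and 0.77 to 1.04. The light-strand share differed by 0.98 to 2.28, 0.42 to 1.15, -1.01 to -0.32, -1.80 to -1.10, -1.49 to -0.19 and -2.90 to -1.60 points, the first and last passing without hyperplastic 8. The mt-Tm share differed by -8.31 to 4.08, -3.26 to 8.51, 18.4 to 30.2, 19.1 to 25.2, -0.85 to 11.0 and 20.8 to 32.7 points. The log2 difference of the share of the other 21 was -0.70 to -0.40, -0.74 to -0.44, -1.51 to -1.21, -0.86 to -0.68, -0.20 to 0.0632 and -0.97 to -0.71, the first passing without healthy 3 or without hyperplastic 7. For mt-Tm the log2 fold change in cSCC against healthy skin was -0.0209 with TMM factors from all features, -0.14 with DESeq2 size factors, with DESeq2 or without cSCC 2 (with 1 library left out, -0.14 to 0.46), and -0.32 without healthy 7 and cSCC 2; in papilloma against hyperplastic skin it was -0.18 with TMM factors from all features and -0.22 with DESeq2 size factors or DESeq2. For mt-Tv in papilloma against hyperplastic skin it was -0.31 with TMM from all and -0.0101 from abundant features, -0.0747 with miRNA counts as library size, -0.34 with DESeq2 size factors or DESeq2 and -0.00888 without hyperplastic 8 (otherwise up to 0.23 with 1 library left out), and for mt-Th it ran from -0.25 to 0.0333, the highest without hyperplastic 7.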
